A study of Mus musculus with 2 samples.

Results

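Early-gene-negative resting double-positive (DP) thymocytes were taken from single-cell RNA libraries of mouse thymus: 95 of the 7137 kept barcodes of the WT library and 197 of the 7501 of the cKO library, 292 of 14638 in all. A barcode was kept with at least 500 genes, at least 1000 unique molecular identifiers (UMIs) and at most 10% mitochondrial UMIs. It was a member with at least 1 UMI of Cd8a or Cd8b1, at least 1 of Rag1, and 0 UMIs of Foxp3, of the cycle genes Rrm2, Top2a, Mki67 and Ube2c, and of the early DP genes Tubb2b, Slc7a11 and Endou. These raw counts chose the cells, so the levels of the 11 genes in the rule are not results, and comparisons of members with other cells are descriptions.

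The WT group was 1 library of wild-type thymocytes, and the cKO group was 1 library of thymocytes of genotype SETDBf/fCD4-Cre, in which loxP-flanked SETDB alleles are cut by Cre under Cd4 control, so deletion is directed to cells that have switched on Cd4. The labels give the gene as SETDB without a number. Both libraries used the v3.1 version of the 3′ chemistry of 10x Genomics, after thymocytes had been enriched on anti-CD25 beads. Treatment, tissue and chemistry were the same in both, and the number and age of the mice, and whether the WT mice carried Cre or loxP alleles, are not given in the sources used here. With 1 library per genotype there was no test between genotypes, and all intervals below are 95% intervals for counting error only.

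DP thymocytes carry both CD4 and CD8. They stop dividing after they have passed selection for the T cell receptor beta chain, re-express the recombinase subunits Rag1 and Rag2, and rearrange the alpha chain locus. A cell whose new receptor binds self MHC weakly is positively selected, raises CD5 and CD69, ends Rag1 expression and matures to the CD4 or CD8 single-positive stage. Most DP cells are not selected and die, and glucocorticoids, to which they are sensitive, can kill them too.

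Bead enrichment is aimed at CD25-bearing cells, which resting DP cells are not. Il2ra, which encodes CD25, gave 26 UMIs in WT members and 59 in cKO members, of which 15 and 43 lay in the few deep cells described below. The libraries held 89370968 UMIs over 7852 barcodes (WT) and 76668166 over 8461 (cKO), and 16 barcode sequences occurred in both, none of them a member. Members held 204906 UMIs in WT and 427667 in cKO, with medians of 2075 and 1833 UMIs per cell. After doublet scoring, 0 WT and 1 cKO member lay above the doublet threshold.

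A few deep cells stood apart. The 2 WT members above 6000 UMIs held 9.68% of the WT member UMIs, and the 6 such cKO members held 14.4%. Of these 8 cells, 7 had no Cd4 UMI and 6 had no Cd8b1 UMI, while 7 had Il2ra, the CD25 gene, 6 had Ptcra, the surrogate alpha chain of the pre-T cell receptor, and 7 had Crip1, which encodes a small LIM protein. The deepest, a cKO cell of 22773 UMIs, was the 1 member scored as a doublet, at 0.577. Another cKO cell, of 8715 UMIs, held 19 UMIs of Tnfrsf9, an activation-induced TNF receptor, and 11 of Itm2a, a gene raised on positive selection. Their marker genes go against the DP label, so results that rest on them are given with and without them.

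Membership fell with sequencing depth up to 6000 UMIs per cell. Among resting DP cells, that is members plus the cells that met all other conditions but held at least 1 UMI of Tubb2b, Slc7a11 or Endou, the share without such UMIs in WT was 18.6% from 1000 to below 1500 UMIs, 5.98% from 2000 to below 2500 and 0.714% from 3000 to below 4000. In cKO it was 22.4%, 4.51% and 3.0% in the same ranges. In both libraries the share was thus highest in the shallowest cells. From 4000 to below 6000 UMIs it was 0% in WT (0 of 84 cells, at most 4.30%) and 1.04% in cKO, and in the deep cells above that it stood at 1.94% and 4.88%. The early-gene-positive cells, 1769 in WT and 2516 in cKO, had medians of 2513 and 2292 UMIs.

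**Figure D1:**
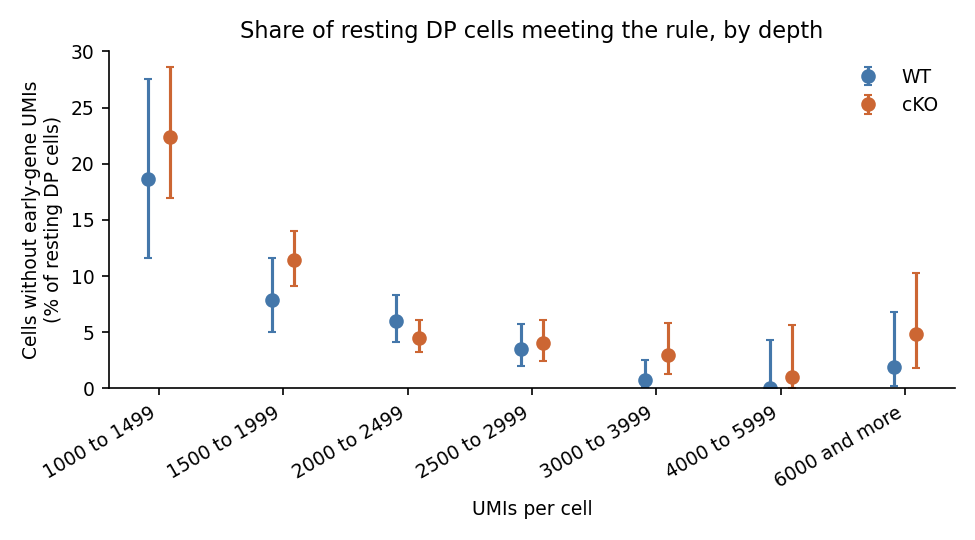
Percent of resting DP cells that held no UMI of Tubb2b, Slc7a11 and Endou, by UMIs per cell, in the WT and cKO libraries. Points are shares and bars are 95% Clopper-Pearson intervals; the share goes from 18.6% in WT and 22.4% in cKO below 1500 UMIs down to 0.714% and 3.0% from 3000 to below 4000, and is 1.94% and 4.88% in the deepest range.

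Members made up 1.33% of kept WT barcodes (1.08 to 1.62%) and 2.63% of kept cKO barcodes (2.28 to 3.01%), a ratio of 1.97 (1.54 to 2.55). As a share of resting DP cells they were 5.10% in WT (4.14 to 6.19%) and 7.26% in cKO (6.31 to 8.30%), a ratio of 1.42 (1.11 to 1.84). When every cell was first thinned to 1500 UMIs and the rule was applied to the thinned counts, the shares of resting DP cells became 12.3% and 14.5%, a ratio of 1.18 (0.985 to 1.41). At equal depth the difference in this share was therefore within counting error. The shares of kept barcodes were then 2.85% and 4.68%, a ratio of 1.64 (1.37 to 1.96). Bead enrichment can set the shares of kept barcodes. Only 34.7% of the WT and 39.8% of the cKO cells that met the rule after thinning were members by their raw counts. Of the others, 114 and 182 counted as early by their raw counts. A further 16 and 21 counted as neither, so they held raw UMIs of Foxp3 or a cycle gene. The part of the summed UMIs that they held was not measured.

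Of the 5 DP marker genes, Rag1 and Cd8b1 are in the rule and so say nothing of the label. The other 3 were found in members of both libraries. Cd4 was at 586 CPM (UMIs of the gene per 1000000 UMIs summed over the cells) in WT and 552 in cKO, Themis, a signalling adaptor needed for positive selection, at 1079 and 917, and Rmnd5a, a ubiquitin ligase subunit, at 713 and 776. In early-gene-positive cells Cd4 stood at 502 and 550 CPM, Themis at 801 and 845, and Rmnd5a at 708 and 773. Of the ratios of members to early-gene-positive cells for these 3 genes, the largest was 1.35 (1.17 to 1.54), for Themis in WT.

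Markers of other cell types were then read in members. All 4 erythroid globin markers were at 0 in both libraries, and the 7 macrophage and dendritic markers summed to 0 UMIs in WT and 4 in cKO. The 6 B cell markers summed to 77 UMIs in WT and 141 in cKO, 376 and 330 CPM, against 376 and 420 CPM in early-gene-positive cells. Ighm, the mu heavy chain gene, gave 66 and 117 of these UMIs, in 47 and 76 members, while Cd79a and Ms4a1 were at 0. The 6 thymic epithelial markers summed to 8 UMIs in WT and 25 in cKO, the latter 11 without the deep cells, all from Epcam and Ccl25, and Krt5, Krt8, Psmb11 and Foxn1 were at 0. Foxp3 was 0 by the rule, and the 6 markers of regulatory T cells summed to 293 CPM in WT and 440 in cKO, against 398 and 352 in early-gene-positive cells. Without cells above 6000 UMIs in either population they summed to 184 and 186 CPM, against 219 and 198. The 5 mature single-positive markers summed to 176 CPM in WT and 180 in cKO, against 209 and 193 in early-gene-positive cells. Without cells above 6000 UMIs in either population these sums were 151 and 142 CPM, against 156 and 135. The 6 markers of CD4-negative CD8-negative stage 3 (DN3) cells summed to 298 and 297 CPM, against 350 and 341. The 6 markers of innate and effector lymphocytes, which include Gzma, summed to 156 and 168 CPM, against 231 and 217. Without cells above 6000 UMIs the DN3 sums were 130 and 73.8 CPM, against 155 and 148, and the innate and effector sums 64.8 and 76.5, against 78.0 and 79.6.

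Whether members are later than the other resting DP cells was less clear from their genes. Trac, the alpha chain constant gene that is transcribed from the rearranging locus, was at 878 CPM in WT members and 652 in WT early-gene-positive cells, a ratio of 1.35 (1.15 to 1.57), and at 846 against 761 in cKO, a ratio of 1.11 (0.997 to 1.24). Ptcra, which belongs to the stage before, was at 58.6 against 114 CPM in WT (ratio 0.512, 0.263 to 0.902) and at 30.4 against 101 in cKO (ratio 0.300, 0.159 to 0.516). Both genes thus stood on the side of a later stage in both libraries, though in cKO the Trac interval includes 1 and Ptcra rests on 12 and 13 UMIs, of which deep cells held 4 and 9. The direction changed with the cells taken. With the rule applied to cells thinned to 1500 UMIs, the log2 fold of Trac was -0.30 in WT and -0.21 in cKO. That of Ptcra was 0.54 in WT and -0.24 in cKO. In these folds, here and below, thinned counts only chose the cells, and the unthinned UMIs of those cells were summed. An effect of depth on its own was not tested. Trac thus turned in both libraries and Ptcra in WT, while Ptcra in cKO kept its direction. Of the genes of the selection step, Cd5 was at 78.1 against 64.2 CPM in WT and 79.5 against 70.7 in cKO, with ratios of 1.22 (0.688 to 2.0) and 1.12 (0.770 to 1.59). At 1500 UMIs per cell, Cd69 was found in 3.95% of WT members (0.822 to 11.1%) and 12% of cKO members (7.27 to 18.3%). In early-gene-positive cells these shares were 4.45% (3.51 to 5.54%) and 4.93% (4.09 to 5.88%). At that depth the intervals were thus apart in cKO and not in WT. In cKO they overlapped at the other depths. The cKO shares were 8.12% (4.71 to 12.9%) against 4.09% (3.35 to 4.94%) at 1000 UMIs. At 2500 UMIs they were 20% (8.44 to 36.9%) against 8.54% (6.84 to 10.5%). Unthinned they were 13.2% (8.81 to 18.7%) against 9.14% (8.04 to 10.3%). Ccr7, a receptor of selected cells, gave 2 UMIs in WT members and 5 in cKO members.

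**Figure D2:**
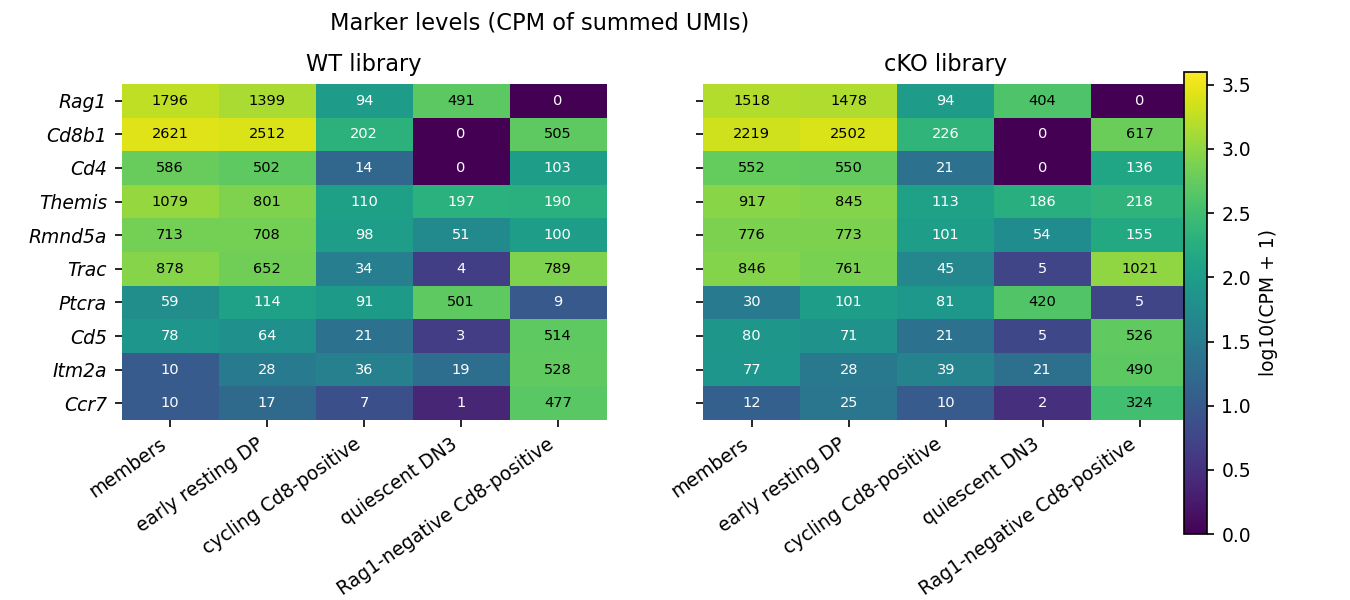
Levels of 10 marker genes (rows, CPM of summed UMIs printed in each box, colour on a log10 scale) in members and 4 other cell populations (columns) of the WT and cKO libraries. Members and early resting DP cells share Rag1 and Cd8b1, which the rule sets, and Cd4, Themis and Rmnd5a, while Rag1-negative Cd8-positive cells hold more Cd5, Itm2a and Ccr7 (Cd5 at 514 and 526 CPM against 78.1 and 79.5 in members).

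The edges of the rule were examined in cells to 6000 UMIs, as values with no test. Just outside on the Rag1 side were the 82 WT and 165 cKO cells with 0 Rag1 UMIs that met all other conditions. Cd5, an inhibitory receptor set by self-reactivity, was at 1027 CPM in WT and 799 in cKO in those cells, at 220 and 192 in members with 1 Rag1 UMI, and at 53.8 and 39.7 in members with 2 or more. Itm2a was at 911 and 662 CPM outside, and at 0 and 45.2 in members with 1 Rag1 UMI. By these values members with a single Rag1 UMI held more Cd5 than those with 2 or more in both libraries, and far less than cells outside. Those with a single Rag1 UMI were only 20 cells in WT and 47 in cKO, against 73 and 144 with 2 or more. Their median depths were 1630.5 and 1771 UMIs, so their levels carry wide counting error.

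On the side of the early genes, the 177 WT and 373 cKO cells with exactly 1 UMI of Tubb2b, Slc7a11 or Endou lay just outside. Ly6d, a surface protein of lymphoid progenitors, was at 1027 CPM in WT members, 1210 in cells with 1 early-gene UMI, 1386 in cells with 2 to 4 and 1696 in cells with 5 or more. In cKO it was at 782, 1009, 1240 and 1809 CPM. Lgals1, the gene of galectin-1, went from 119 CPM in WT members to 325 in cells with 5 or more, and from 137 to 272 in cKO. Anxa2, a membrane-binding annexin, went from 178 to 441 CPM in WT and from 251 to 430 in cKO. All 3 thus stood lowest in members and highest in cells richest in early-gene UMIs, in both libraries, by raw counts. When the rule was applied to cells thinned to 1500 UMIs, the log2 fold of members over early-gene-positive cells turned for Lgals1, to 0.36 in WT and 0.45 in cKO. That of Ly6d was 0.10 in WT and -0.39 in cKO, and that of Anxa2 was -0.20 and -0.21.

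Sptan1, Lipa, Trac and Malat1 went the other way. Sptan1, which encodes a spectrin chain of the membrane skeleton, was at 270, 188, 171 and 161 CPM from 0 to 5 or more early-gene UMIs in WT, and at 227, 161, 152 and 151 in cKO. Lipa, the lysosomal acid lipase, was at 394 CPM in WT members and 274 in cells with 5 or more, and at 352 and 240 in cKO. Trac was at 972.5 CPM in WT members and 715 in cells with 5 or more, and at 981 and 816 in cKO. These 3 genes thus stood highest in members by raw counts. Malat1, a nuclear long non-coding RNA, was at 52166 and 42199 CPM in WT and at 41542 and 36142 in cKO. The share of UMIs from ribosomal protein genes was lower in members, 13.5% against 16.4% in WT and 15.2% against 17.2% in cKO, and median depth moved with the bands too, from 2065 to 2689 UMIs in WT and from 1814 to 2560 in cKO. After thinning to 1500 UMIs the log2 folds of members over early-gene-positive cells were -0.076 in WT and 0.015 in cKO for Sptan1, and -0.35 and -0.17 for Lipa. For Trac they were -0.30 and -0.21 as above, and for Malat1 -0.37 and -0.19. Of the 7 genes with a gradient by raw counts, Anxa2 was thus the 1 that kept its direction in both libraries under the thinned rule. These folds sum the unthinned UMIs of the cells chosen, so they are not levels at equal depth.

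**Figure D3:**
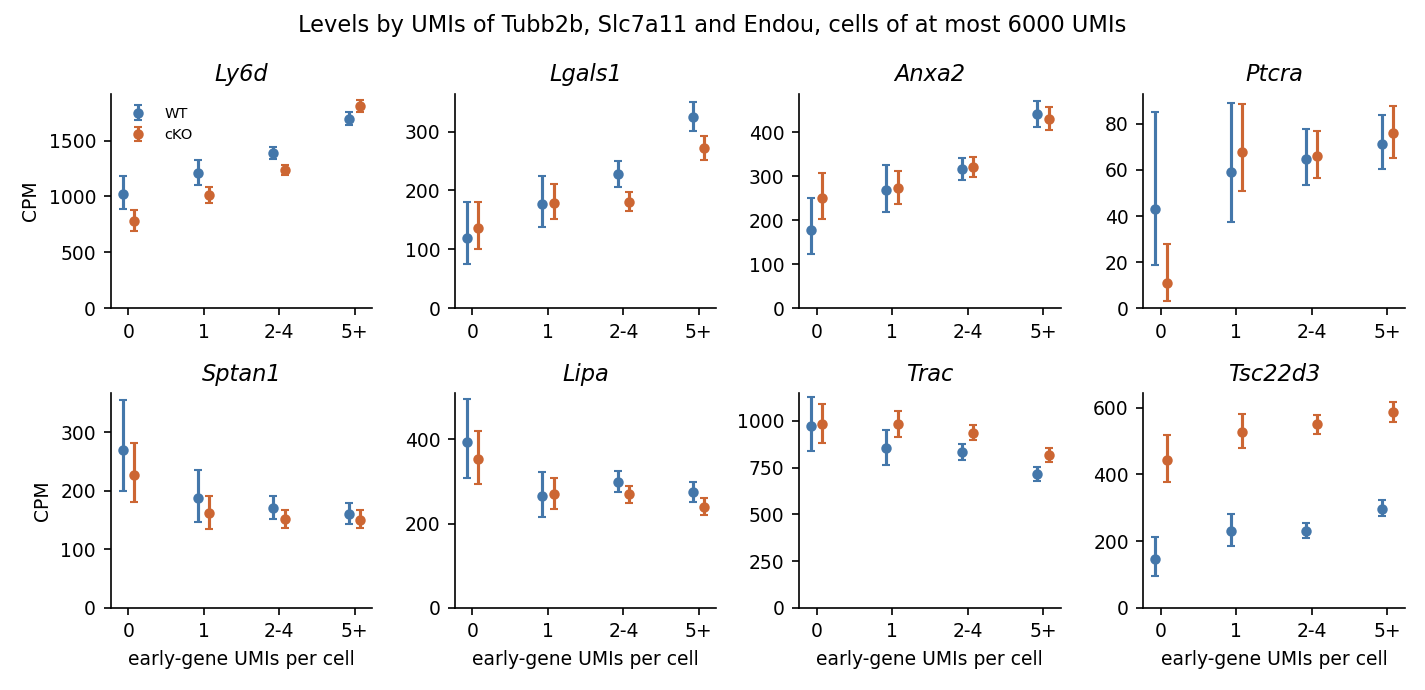
CPM of 8 genes in resting DP cells of at most 6000 UMIs, grouped by the UMIs of Tubb2b, Slc7a11 and Endou per cell (0 are members), in WT and cKO. Points are CPM of summed UMIs and bars are 95% exact Poisson intervals; Ly6d, Lgals1 and Anxa2 are lowest at 0, Sptan1 and Lipa are highest there, and Tsc22d3 is higher in cKO than in WT in every group. The groups differ in depth.

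Over all genes with at least 50 UMIs in members and early-gene-positive cells summed, in each library, 49 of 8011 (0.612%) were at least 1.5-fold higher in members in both libraries and 118 (1.47%) at least 1.5-fold lower, on the scale log2(CPM + 5). The 12 highest were Mcph1, Car2, Pigc, Sgpl1, Spidr, Armc8, Mon1b, Ccdc93, Abl2, Dhx29, Als2cl and Endov, and the 12 lowest were Gbp6, Avpi1, Arsi, Cpa3, Ggh, Snx30, Fam92a, Plaat3, Prr13, Nrp1, Dusp28 and Dtx3l. None had more than 24 UMIs in the members of a library, and Gbp6, Avpi1 and Arsi had 0 in both, so their folds carry wide counting error. Another filter, chosen after the data had been seen, therefore asked for at least 20 UMIs expected in the members of each library from the pooled level of the gene.

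Under that filter 0 of 1863 genes (0%) were at least 1.5-fold higher in both libraries and 2 (0.107%) were lower, Ptcra and Lgals1. Lgals1 was at 142 CPM in WT members against 326 in early-gene-positive cells, and at 154 against 272 in cKO. When the rule was applied after thinning to 1500 UMIs, Lgals1 turned in both libraries, to log2 folds of 0.36 in WT and 0.45 in cKO. Ptcra turned in WT, to 0.54, and stood at -0.24 in cKO. Next lowest in both libraries were Anxa2 and Gzma, the gene of granzyme A, which stood at 58.6 against 114 CPM in WT and 72.5 against 108 in cKO, and whose log2 fold turned to 1.20 in WT and 0.51 in cKO after thinning. Chmp5, Pgls, Ctsb, Tnfaip8, Glcci1, Mrps16, Klf6 and Cox7a2l completed the 12 lowest. These 8 genes lay between -0.41 and -0.70 on the log2 scale in cKO.

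Highest in both libraries was Sptan1, at a log2 fold of 0.75 in WT and 0.57 in cKO, then Luc7l, an RNA-splicing factor, at 0.47 and 0.54, and Lipa at 0.56 and 0.46. The folds of Sptan1 and Lipa after thinning are given above. The others among the 12 were Sh3gl1, Kmt2c, Ddx39, Zfp148, Ago2, Slc9a9, Gatad2b, Ppp4r2 and Setd2. Kmt2c and Setd2 encode histone methyltransferases, and Ago2 is the argonaute that small RNAs guide. The median log2 fold over the 1863 genes was 0.03 in WT and 0.00 in cKO.

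The comparison of cKO with WT members asked how loss of SETDB in Cd4-expressing cells is seen in this stage. Setdb1, a histone H3 lysine 9 methyltransferase, gave 6 UMIs in WT members and 9 in cKO members, 29.3 and 21.0 CPM, with a ratio of 0.719 (0.228 to 2.45). Setdb2 gave 2 and 3 UMIs. These counts cannot check the deletion, and a 3′ tag outside the deleted exons would not show it. Over the 2420 genes with at least 50 UMIs in members of both libraries together, 99 (4.09%) were at least 1.5-fold higher in cKO and 124 (5.12%) at least 1.5-fold lower, and the median log2 fold was -0.02. Without the 8 deep cells the counts were 104 (4.78%) and 103 (4.74%) of 2175. The counting interval of the ratio lay above 1 for 97 genes and below 1 for 112.

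Of the 12 highest and 12 lowest named genes, only Tsc22d3 and Mbnl1 stayed past 1.5-fold when the rule was applied to cells thinned to 1500 UMIs, which takes in 199 WT and 337 cKO cells. Of the 12 highest 11 stayed above 0, and of the 12 lowest 8 stayed below 0, with values from -0.41 to 0.17. Without the deep cells, 12 of the 12 highest and 10 of the 12 lowest stayed past 1.5-fold. The values of the other named genes below are those of the raw rule and hold for these cells only.

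Tsc22d3, which encodes the glucocorticoid-induced leucine zipper protein and is a target of both the glucocorticoid receptor and FOXO factors, had the highest fold among the 12 highest named genes. It had 30 UMIs in WT members and 179 in cKO members, or 146 CPM (98.8 to 209) and 419 CPM (359 to 485). The ratio was 2.86 (1.93 to 4.36), and 3.03 (2.01 to 4.75) without the deep cells. After thinning to 1500 UMIs the log2 fold was 1.14, against 1.48. At 1500 UMIs per cell 22.4% of 76 WT members had a Tsc22d3 UMI (13.6 to 33.4%), against 48.7% of 150 cKO members (40.4 to 57.0%), and unthinned 23.2% and 53.3%. B cells, which express the gene as well, gave 36.7% and 41.7% at that depth. The difference was seen across the population and not in a few cells: 105 of the 197 cKO members held a UMI and no member held more than 6.

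Tsc22d3 was higher in cKO in the other stages too, by 1.12 on the log2 scale in early-gene-positive cells, 1.05 in cycling Cd8-positive cells and 1.21 in quiescent DN3 cells, against 1.48 in members. In early-gene-positive cells the ratio was 2.20 (2.06 to 2.34), inside the interval for members. As background, DN3 cells come before the stage at which Cre under Cd4 control is usually active, and the rule for DN3 cells took only cells without a Cd4 UMI.

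The list of 30 glucocorticoid and FOXO response genes had 16 described members. Of these, 4 were at least 1.5-fold higher in cKO (Tsc22d3, Ddit4, Fkbp5 and Nr3c1) and 0 were lower, against 4.09% and 5.12% of all described genes, the shares beside which the count of each list below stands. The median log2 fold was 0.20, and 0.09 for the same genes in early-gene-positive cells. Ddit4, an inhibitor of mTORC1, had 11 UMIs in WT and 49 in cKO, 53.7 and 115 CPM, with a ratio of 2.13 (1.09 to 4.55). Fkbp5, a chaperone of the glucocorticoid receptor, had 13 and 56 UMIs, 63.4 and 131 CPM, a ratio of 2.06 (1.11 to 4.11) that became 2.24 (0.968 to 6.03) without the deep cells, and its log2 fold after thinning was -0.12. Nr3c1, the glucocorticoid receptor itself, had 19 and 69 UMIs and a ratio of 1.74 (1.03 to 3.06). Pdk1, Pik3ip1 and Bmf, FOXO-linked genes of metabolism, PI3K signalling and death, had ratios of 1.19, 1.13 and 1.44 with intervals that include 1. Their ratios in early-gene-positive cells were 1.51, 1.57 and 1.92.

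The MHC class I list had 8 described members of 18, of which 1 (H2-K1) was at least 1.5-fold higher, 0 were lower and 7 lay above 0, with a median log2 fold of 0.42. The same 8 genes had a median of 0.26 in early-gene-positive cells. H2-K1, a classical class I heavy chain, had 16 UMIs in WT and 93 in cKO, 78.1 and 217 CPM, a ratio of 2.78 (1.63 to 5.07). The deep cells held 9 of the WT and 54 of the cKO UMIs, and without them the ratio was 2.82 (1.25 to 7.47). After thinning to 1500 UMIs the log2 fold was 0.25, against 1.42. H2-D1, the second classical heavy chain, had 55 and 170 UMIs and a ratio of 1.48 (1.09 to 2.05). B2m, the light chain shared by all class I molecules, had 72 and 196 UMIs and a ratio of 1.30 (0.991 to 1.73). Tap2, part of the peptide transporter, and H2-Q4 had log2 folds of 0.47 and 0.50, while H2-T23 stood at -0.12. Reads of the H2 genes, which are near-identical in parts, could be split among them by the counting, so their single values are uncertain.

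H2-K1 was far higher in the Rag1-negative resting Cd8-positive cells, at 1160 CPM in WT and 975 in cKO. At 1500 UMIs, 6.58% of WT and 10.7% of cKO members had an H2-K1 UMI, with intervals that overlap, against 86.7% and 100% of B cells.

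These class I genes are the list with the highest median among those with at least 5 described genes. For that reason promoters are shown, for H2-K1, H2-D1 and B2m only. They were read from RefSeq on GRCm38.p6 as 250 bases before to 50 after the annotated start, 5′ to 3′ along the gene. Capitals mark the class I enhancer motif of the kind bound by NF-kappaB (GGGA, any base, T, any 2 bases, CC) and the interferon response motif AANTGAAA, on either strand. The H2-K1 window is 1 of 2 listed for the gene. All 3 windows shown held both motifs. Windows of the other genes of the list are not given here, so these matches do not describe the list. The enhancer motif, which matches on both strands in the H2 windows, stood in 4.16% and AANTGAAA in 6.58% of 32851 promoter windows of the same length.
H2-K1, chr17:34000298-34000597, minus strand: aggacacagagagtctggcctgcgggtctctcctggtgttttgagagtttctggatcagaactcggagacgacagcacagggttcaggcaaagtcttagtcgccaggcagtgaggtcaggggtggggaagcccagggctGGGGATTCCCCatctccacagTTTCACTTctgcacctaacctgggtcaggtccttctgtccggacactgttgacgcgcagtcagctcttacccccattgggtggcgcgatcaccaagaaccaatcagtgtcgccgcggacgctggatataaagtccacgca
H2-D1, chr17:35262844-35263143, plus strand: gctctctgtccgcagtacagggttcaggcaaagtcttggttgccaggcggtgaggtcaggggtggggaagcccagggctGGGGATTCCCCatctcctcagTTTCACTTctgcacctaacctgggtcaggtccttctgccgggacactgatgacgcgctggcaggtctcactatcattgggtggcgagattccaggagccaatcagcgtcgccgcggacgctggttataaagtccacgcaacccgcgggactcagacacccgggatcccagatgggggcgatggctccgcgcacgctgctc
B2m, chr2:122147437-122147736, plus strand: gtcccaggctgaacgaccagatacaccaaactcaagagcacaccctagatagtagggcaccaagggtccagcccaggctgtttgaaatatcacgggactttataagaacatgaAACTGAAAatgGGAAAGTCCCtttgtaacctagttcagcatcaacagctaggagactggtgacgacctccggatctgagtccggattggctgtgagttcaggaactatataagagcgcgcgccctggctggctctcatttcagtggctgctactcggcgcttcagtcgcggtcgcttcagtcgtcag

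The motif matches describe letters and do not show binding. H2-K1 and H2-D1 share the enhancer motif and the interferon motif at the same spacing, and in B2m the interferon motif comes first.

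Mbnl1, an RNA-binding regulator of splicing, was the most abundant gene among the 12 highest. It had 122 UMIs in WT and 405 in cKO, 595 and 947 CPM, with a ratio of 1.59 (1.30 to 1.96), and its log2 fold of 0.67 in members stood beside 0.65 in early-gene-positive cells, 0.42 in cycling and 0.30 in DN3 cells. Crip1 was at 420 CPM in WT and 802 in cKO, but deep cells held 59 of its 86 WT and 261 of its 343 cKO UMIs, and without them the ratio went from 1.91 (1.5 to 2.45) to 1.54 (0.984 to 2.47).

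The 12 highest also took in Crlf3, Mbd2, Arpc5l, Swi5, Irf2bp2, Cwc15 and Tbca, beside H2-K1. Mbd2, which binds methylated DNA, had 29 and 111 UMIs and a ratio of 1.83 (1.21 to 2.86). Irf2bp2, a transcriptional corepressor, had 22 and 79 UMIs and a ratio of 1.72 (1.06 to 2.90). Leaving aside Tsc22d3, H2-K1 and Mbnl1, the highest log2 fold of the 12 in early-gene-positive, cycling or DN3 cells was 0.23, for Mbd2 in cycling cells. The log2 fold of Irf2bp2 became -0.033 after thinning. These genes were picked for their ratios among many with few UMIs.

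**Figure D4:**
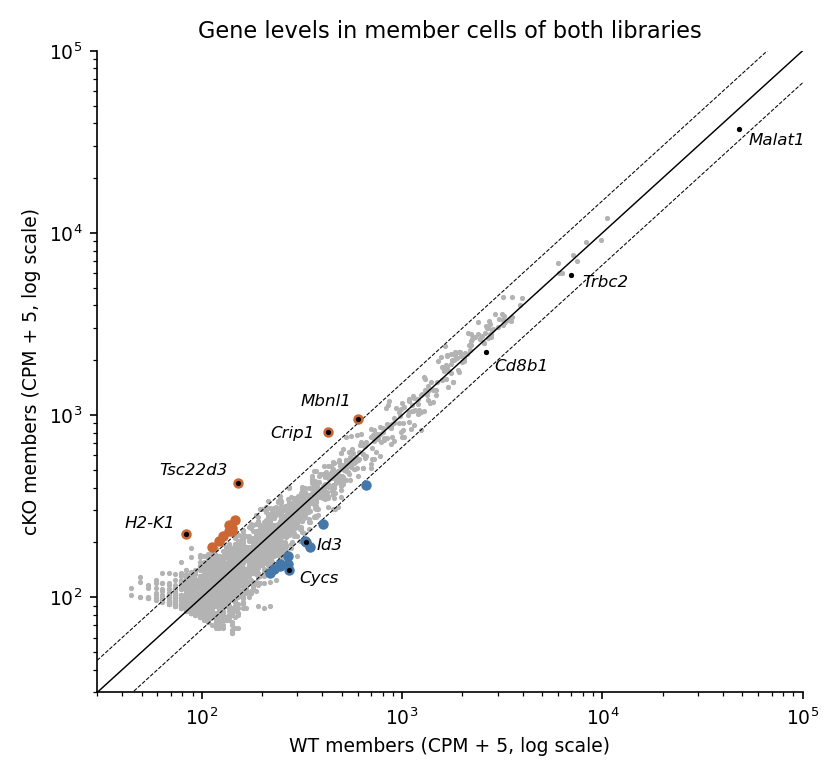
CPM + 5 in WT members (x axis) and cKO members (y axis), both on log scales, of the 2420 genes with at least 50 UMIs. The solid line is equality and the dashed lines are 1.5-fold; orange and blue points are the 12 named genes on each side, with Tsc22d3 at 146 and 419 CPM and Cycs at 268 and 136.

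The 12 lowest in cKO included Cycs, Mprip, Abi3, Cir1, Id3, Slamf6, Bach1, Cabin1, Smc3, Dynll1 and Avl9. Cycs, which encodes cytochrome c, the electron carrier that triggers apoptosis when released, had 55 UMIs in WT and 58 in cKO, 268 and 136 CPM, a ratio of 0.505 (0.343 to 0.744), and after thinning its log2 fold was -0.25 against -0.96. Slamf6, Bach1 and Cabin1 turned to 0.17, 0.051 and 0.094 after thinning. Id3, an inhibitor of E proteins that T cell receptor signals raise, had 67 and 84 UMIs and a ratio of 0.601 (0.431 to 0.841), against 1.01 in early-gene-positive cells, and its log2 fold became 0.14 after thinning. Dynll1, a dynein light chain, had 135 and 175 UMIs, a ratio of 0.621 (0.493 to 0.783), and was the 1 gene of the 12 whose log2 fold was at or below -0.40 in early-gene-positive, cycling and DN3 cells alike.

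**Figure D5:**
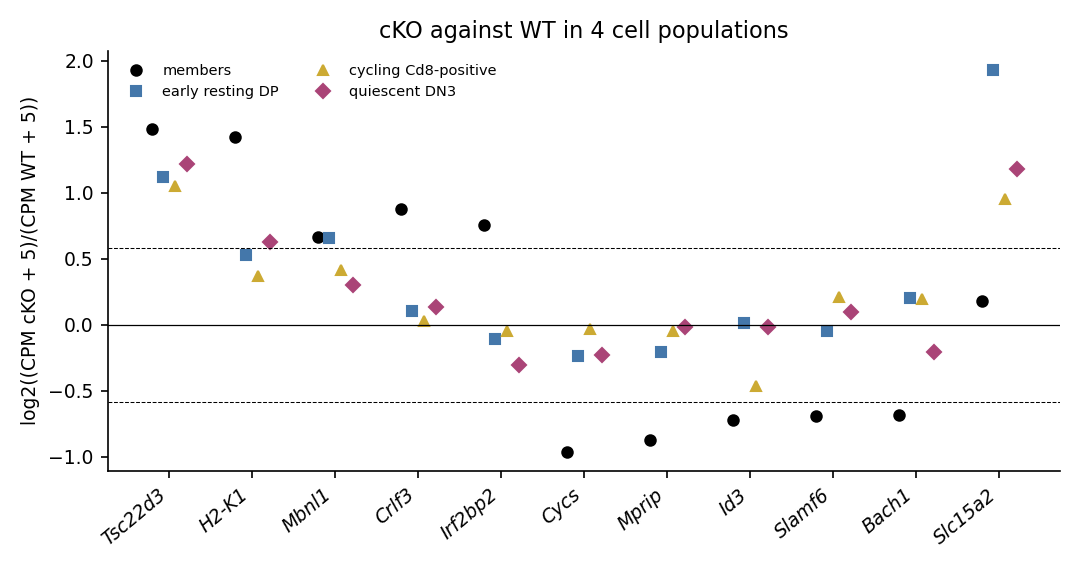
log2((CPM cKO + 5)/(CPM WT + 5)) of 11 genes in members, early resting DP, cycling Cd8-positive and quiescent DN3 cells, with dashed lines at 1.5-fold. Tsc22d3 lies above 1 in all 4 populations, Cycs, Mprip, Id3, Slamf6 and Bach1 lie below the lower line in members only, and Slc15a2 is at 1.93 in early resting DP cells and 0.18 in members.

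Slc15a2, a peptide transporter chosen after its values were seen, had 10 UMIs in WT members and 24 in cKO members, 48.8 CPM (23.4 to 89.8) and 56.1 CPM (36.0 to 83.5), a ratio of 1.15 (0.530 to 2.69). In early-gene-positive cells the WT level was 14.6 CPM and the cKO level 69.7 CPM, so that the ratio was 4.77 (3.75 to 6.13). The difference between the stages was not tested. With the rule applied to cells thinned to 1500 UMIs, the log2 fold of cKO over WT in members was 1.8. It was 0.18 under the raw rule, beside 1.93 in early-gene-positive cells. Atf7ip and Resf1, whose products partner SETDB1, had ratios of 1.22 (0.887 to 1.70) and 0.958 (0.657 to 1.42).

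The genes Camsap1, Naa30 and Tnfrsf9, at 0 in WT members, had at least 20 UMIs in cKO members. Camsap1, a microtubule minus-end protein, and Naa30, an N-terminal acetyltransferase, each had 20 UMIs. Both stood 3.19-fold above a floor of 3 counts over all WT members. The lower counting limit of the ratio, which takes in the error of the cKO count too, was 2.37. Their ratios in early-gene-positive cells were 0.979 and 1.33. Tnfrsf9 had 29 UMIs, 4.63-fold above that floor with a lower counting limit of 3.53, but 28 of them came from deep cells.

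Of 24 described genes of V(D)J recombination and DP identity, 0 were at least 1.5-fold higher and 0 lower, which at 4.09% and 5.12% over all described genes is near the background. Their median was -0.10. Rag2, the partner of Rag1, had 18 and 25 UMIs and a ratio of 0.665 (0.349 to 1.29). Dntt, which adds untemplated bases at junctions, had 302 and 585 UMIs and a ratio of 0.928 (0.806 to 1.07). Arpp21 and Satb1, a DP-enriched RNA-binding protein and a chromatin organizer, had ratios of 1.02 (0.872 to 1.19) and 0.962 (0.869 to 1.07).

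The T cell receptor and CD3 list had 2 of 25 described genes higher, Zap70 and Ptpn22, and 0 lower, with a median of -0.04. Zap70, the kinase recruited to phosphorylated CD3 chains, had 12 and 45 UMIs and a ratio of 1.8 (0.935 to 3.73). Trbc1 and Trbc2, the constant genes of the beta chain, had ratios of 1.25 (1.15 to 1.36) and 0.840 (0.787 to 0.897). Ranked by the lower of the values of both libraries, they were the most variable genes after Malat1, with variances of 10.5 and 13.2 times (Trbc1, WT and cKO) and 6.95 and 5.62 times (Trbc2) the value of a Poisson draw at each cell's depth, against medians of 1.08 and 1.12 over 3378 genes. A cell uses only 1 of these 2 genes for its productive chain, and the 2 are near-identical in sequence, so their reads could be split between them. The counting intervals of both ratios above take in neither this spread among cells nor such a split, so they are too narrow. Malat1 itself was at 24.4 and 24.7. In cKO alone Crip1, at 7.74, and Gm12840, at 6.30, lay above Trbc2.

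Among the remaining variable genes, Ly6d was at 3.83 in WT and 4.97 in cKO, and Actb, the cytoplasmic actin gene, at 4.09 and 4.04. Crip1 was at 4.03 and 7.74 and stood at 1.15 and 1.05 without the deep cells. Rpl3, a ribosomal protein gene, was at 3.11 and 2.73, and at 1.41 and 1.21 without them. Trgc2, a gamma chain constant gene, was at 2.81 and 3.04, and 27 of its 27 WT and 48 of its 50 cKO UMIs were in deep cells. Also among the 12 were mt-Co1, mt-Atp6, H3f3b and Mier1.

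Of 9 described genes of the positive selection response, 1 (Ikzf2) was higher and 1 (Id3) lower, with a median of -0.21. Ikzf2, the transcription factor Helios, had 22 and 70 UMIs, of which deep cells held 8 and 51, and its ratio of 1.52 (0.933 to 2.59) became 0.686 (0.326 to 1.48) without them. Itm2a had 2 UMIs in WT members and 33 in cKO members, of which 23 were in deep cells. Nr4a1, an immediate response gene of the T cell receptor, had 2 and 32, of which 18 were in 1 deep cell. Cd69 had 10 and 29 UMIs and a ratio of 1.39 (0.658 to 3.20).

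Survival genes gave 1 of 8 described members lower (Cycs) and 0 higher, with a median of -0.04. Bcl2l1, whose product Bcl-xL keeps DP cells alive, had 27 and 58 UMIs and a ratio of 1.03 (0.641 to 1.69). Bcl2, which is raised after selection, had 9 and 39 UMIs, of which 24 of the 39 were in deep cells, and a ratio of 1.26 (0.464 to 3.98) without them.

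Interferon-stimulated genes gave 1 of 6 described members lower and 0 higher, with a median of 0.16. The 1 was Ifi27, with 47 and 51 UMIs and a ratio of 0.520 (0.343 to 0.790), and its log2 fold was -0.92 in members, -0.69 in early-gene-positive, -1.36 in cycling and -1.01 in DN3 cells. Bst2, another of the list, had 22 and 49 UMIs and a ratio of 1.07 (0.633 to 1.85), against 0.689 (0.632 to 0.750) in early-gene-positive cells.

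Histone genes gave 3 of 11 described members lower, the linker histones H1f5 and H1f4 and the core histone Hist1h2ap, and 0 higher. This stands beside 5.12% lower and 4.09% higher over all described genes. Their median was -0.09. Without the deep cells 2 of 11 were lower and 1 was higher. Hist1h2ap had 94 and 129 UMIs and a ratio of 0.658 (0.500 to 0.867), and its log2 fold was -0.60 in members and -0.49 in early-gene-positive cells. H1f5 had 30 and 32 UMIs and a ratio of 0.511 (0.301 to 0.871).

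The counts in the metabolic and growth lists stand beside 4.09% higher and 5.12% lower over all described genes. Nuclear genes of oxidative phosphorylation gave 1 of 23 lower (Cycs, which is also in the survival list) and a median of 0.06. Glycolysis gave 0 of 6 either way and a median of 0.10, with Gapdh at 1191 and 1141 CPM and Pkm, pyruvate kinase, at 229 and 285. MYC targets gave 2 of 13 higher, the nucleolar Nop58 and the nuclear transport GTPase Ran, with a median of 0.05 in members and -0.14 for the same genes in early-gene-positive cells. Without the deep cells 0 of 9 MYC targets were higher, and the ratio of Ran went from 1.54 (1.06 to 2.29) to 1.19 (0.772 to 1.88). Its log2 fold was -0.046 after thinning to 1500 UMIs. Scd2, a fatty acid desaturase, was the 1 described gene of the cholesterol and lipid list, with a ratio of 1.02 (0.710 to 1.49).

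Heat shock and immediate early genes gave 0 of 14 either way and a median of -0.05, with Jund, an AP-1 factor, at 1244 and 1284 CPM and Hsp90ab1, a cytosolic chaperone, at 1425 and 1181. Chemokine receptors and adhesion genes gave 0 of 9 either way and a median of 0.02. Ccr9, which guides thymocytes, was at 1240 and 1036 CPM, a ratio of 0.836 (0.715 to 0.979), and Cd47 at 449 and 482. Maturation and egress genes gave 0 of 6 either way and a median of 0.14, with Cd52 at 1122 and 1263 CPM and Cd27, a TNF receptor of thymocytes, at 517 and 561.

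The SETDB1, HUSH and H3K9 list had 8 described members, of which 1 (Hdac1, a histone deacetylase, 17 and 57 UMIs) was higher and 0 lower, with a median of 0.01. After thinning to 1500 UMIs the log2 fold of Hdac1 turned to -0.39. Genes raised in cKO regulatory T-like cells, a list chosen on these libraries and so no independent evidence, gave 2 of 4 described higher, Ssbp4 and Trim24. Ssbp4, a single-stranded DNA-binding protein, had 9 and 41 UMIs and a ratio of 2.18 (1.04 to 5.11), and a log2 fold of 1.04 in members beside 0.70 in early-gene-positive, 1.59 in cycling and 1.15 in DN3 cells. Pcna, the replication clamp, was the 1 of 4 described S phase genes that was higher, with 16 and 58 UMIs and a ratio of 1.74 (0.985 to 3.24), and H2ax the 1 of 2 described G2 and M genes that was lower. The coreceptor and lineage list gave 1 of 10 higher and the Treg signature 1 of 2, Ikzf2 in both, with medians of -0.09 and 0.35. The pre-T cell receptor and Notch list gave 0 of 2. Without the deep cells, 1 gene was at least 1.5-fold higher in each of the V(D)J, interferon, maturation, histone, oxidative phosphorylation, heat shock and chemokine lists. Xist gave 0 UMIs in members of both libraries, and Ddx3y and Eif2s3y were found in both.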

How the data were processed

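The authors' deposited matrices hold UMI counts per gene and barcode, not normalized. They were made with Cell Ranger 6.1.1 per the file headers; CASAVA 1.8 and Seurat 4.0.3 are named in the submitters' processing notes, and no source used here gives the build. From these counts, 31253 genes were read in 1 library per genotype, grouped by the labels. UMIs were summed over the cells of a population and divided by their total (CPM). Folds are log2((CPM + 5)/(CPM + 5)), described for genes with at least 50 UMIs and named at 100 or more; a gene counts as higher or lower at 1.5-fold. Sums have exact Poisson intervals, shares and ratios Clopper-Pearson intervals, at 95% and for counting error only. Thinning drew UMIs without replacement.

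Named were the 15 most abundant genes, the 12 highest and 12 lowest in each comparison (cKO against WT only with the same sign in cells of 2000 to 6000 UMIs), the 12 most variable, genes at 0 in 1 library with 20 or more in the other, Setdb1 and Setdb2, up to 4 called genes of each list (or its 2 most abundant), and the markers. TCR segments, Gm and Rik models, mitochondrial, ribosomal protein and rule genes were left out of the genotype ranking. Mitochondrial, ribosomal protein and rule genes were left out of the abundance ranking. Other genes were chosen after their values were seen. A few genes that these rules name are not reported here. The members and the 32 lists (509 genes) were chosen with earlier results of these data known.

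Doublets were scored with scrublet in scanpy 1.11.5 at an expected rate of 0.06 and kept. The automatic threshold called 1 of 7501 cKO barcodes, so the WT threshold of 0.29 was used for both, chosen after this was seen; it marked 148 WT and 129 cKO barcodes. The fold calculation was tested on simulated data. Python 3.11.15, numpy 2.4.6, scipy 1.17.1 and pandas 2.3.3 were used.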

Additional observations from a re-analysis of the deposited data

Results flagged for a closer look

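In 10 genes reported here the log2 fold of members over early-gene-positive cells pointed one way in WT and the other way in cKO, past 1.5-fold in both. They were picked for this after their values were seen, all had 0 to 32 UMIs in the members of a library, and the difference between the genotypes was not tested.

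Higher in members in WT and lower in cKO were Lancl1 (1.04 and -0.84), Brwd3 (0.90 and -0.99), Dram2 (1.15 and -1.05) and Prss2 (2.53 and -1.62). Lower in WT members and higher in cKO members were Camsap1 (-2.23 and 1.16), Sord (-2.25 and 0.78) and H1f10 (-2.25 and 1.32). The same held for Apoe, a lipid carrier (-1.53 and 0.69), Ifi27l2a, an interferon-stimulated gene (-1.82 and 0.85), and Nr4a1 (-1.66 and 1.07). Without cells above 6000 UMIs the cKO values became 0.58 for H1f10 and 0.25 for Nr4a1.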

How the results depend on the processing

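No paired analysis was possible because each genotype is 1 library, and no replicate was left out for the same reason. Depth limits the results, with members at medians of 2075 and 1833 UMIs, and the cause of the changes below was not tested.

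Of values recomputed under the alternatives, 869 of the cKO against WT gene values kept their side of 1.5-fold, 121 crossed it and 15 turned; for members against early-gene-positive cells these were 1407, 131 and 30.

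The number of genes described differs between the alternatives, so each count below is given with it. The main analysis had 99 genes higher and 124 lower in cKO of 2420 (4.09% and 5.12%). With at least 1000 genes, 2000 UMIs and at most 5% mitochondrial UMIs, members were 0.856% of WT and 1.16% of cKO barcodes, a ratio of 1.36. Of 821 genes, 49 were higher and 45 lower in cKO. Of 6527 genes, 114 were higher and 281 lower in members. Trim24 became -0.39, Mcph1 in cKO -0.11 and Mon1b in WT -0.081.

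With the rule applied after thinning to 1500 UMIs, the shares were 2.85% and 4.68%, and 191 of 5308 genes were higher in cKO. Of 7677 genes, 85 were higher and 21 lower in members. cKO against WT, Irf2bp2 became -0.033, Id3 0.14, Slamf6 0.17, Bach1 0.051, Cabin1 0.094, Ikzf2 -0.063, Fkbp5 -0.12, Ran -0.046 and Hdac1 -0.39. Against early-gene-positive cells in WT, Spidr became -0.53, Armc8 -0.0055, Mon1b -0.00065, Abl2 -0.029, Als2cl -0.11, Gbp6 0.14, Avpi1 0.67, Snx30 0.95, Fam92a 0.30, Plaat3 0.36, Prr13 1.03, Dtx3l 0.13, Sptan1 -0.076, Zfp148 -0.18, Ptcra 0.54, Lgals1 0.36, Gzma 1.20 and Mrps16 0.23. In cKO, Gbp6 became 0.025, Cpa3 2.24, Snx30 0.66, Fam92a 0.15, Dusp28 0.022, Dtx3l 0.0052 and Lgals1 0.45.

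With at least 2 Rag1 UMIs the shares were 1.04% and 1.96%, and of 7729 genes 88 were higher and 183 lower in members. With at least 3 UMIs of Cd8a and Cd8b1 these counts were 82 and 192 of 7745, Ikzf2 became -0.58 and Bcl2 -0.16 (0.98 before). In cells of 2000 to 6000 UMIs, 48 genes were higher and 56 lower in cKO, of 1040. In members 122 were higher and 219 lower, of 7081, with Sgpl1 at -0.38 and Cpa3 at 0.82 in cKO. A pseudocount of 20 left 64 of 2420 genes higher in cKO, and 4 higher and 18 lower of 8011 in members. For members a pseudocount of 1 gave 102 and 201 of 8011. A minimum of 10 UMIs gave 896 higher and 850 lower of 6890 in cKO, and 89 higher and 260 lower of 10323 in members. A minimum of 200 gave 3 and 4 of 443, and 9 and 18 of 4474. The next 2 alternatives were chosen after seeing the data. At least 20 UMIs expected in members gave 0 higher and 2 lower in members, of 1863 genes. Leaving out cells above 6000 UMIs put Ikzf2 at -0.50 and Cpa3 in cKO at 0.40. Ikzf2 was -0.30 as a mean of per-cell CPM and -0.12 under looser cell limits.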

Other observations

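The most abundant genes of members are given in the order of their lower level in the 2 libraries. Mitochondrial genes, ribosomal protein genes (taken by their Rpl and Rps names) and the genes of the rule, such as Cd8b1, were left out. Malat1 led, at 47895 CPM in WT and 37295 in cKO, then H3f3b, a replacement histone, at 7438 and 6996, Tpt1, a translation-linked growth protein, at 6086 and 6051, and Actb at 6300 and 6033. Trbc2, Fau, Trbc1, Tmsb4x, Ubb, Eef1a1, Ptma, Satb1, H3f3a, Eif1 and Hmgb1 completed the 15. Kcnq1ot1, an imprinted antisense RNA that was not among the 12 most variable genes at all depths, was among the 12 most variable without the deep cells, at 3.30 in WT and 2.34 in cKO; no source used here says whether the counting used strand.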
